A study of Mus musculus with 12 samples.

Results

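The genes described here make, convert or spend nicotinamide adenine dinucleotide (NAD), and their mRNA levels were read in 12 RNA sequencing libraries of N9 cells, an immortalised mouse microglial line. The 9 genes are Cd38, Nampt, Nmnat1, Nadk, Parp1, Parp9, Parp10, Parp12 and Parp14. They were taken by gene symbol from a table of 54532 genes, and all 9 were among the 12766 genes with enough counts to be tested. The libraries form 4 groups of 3: high fructose medium with lipopolysaccharide (LPS), high glucose medium with LPS, control medium with LPS, and control medium without LPS. Control medium was glucose-free DMEM with dialysed serum, 3 mM glucose and 5 mM fructose, and the raised-sugar media held 15 mM glucose or 15 mM fructose. The labels leave unsaid whether 15 mM is the total or was added to the control amount. Cells spent 18 h in their medium before LPS, a cell wall component of Gram-negative bacteria, was given at 1 µg/ml for 6 h. No group received a raised sugar without LPS, and none controlled for osmolarity.

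Cells keep NAD up largely by salvage: Nampt joins nicotinamide to a ribose phosphate to give nicotinamide mononucleotide, Nmnat1 turns that into NAD in the nucleus, and Nadk phosphorylates NAD to NADP in the cytosol. NAD is spent by enzymes that cleave it, such as the cell-surface glycohydrolase Cd38 and the poly(ADP-ribose) polymerase (PARP) family, whose founding member Parp1 answers DNA breaks with chains of ADP-ribose. Parp10, Parp12 and Parp14 attach single ADP-ribose units to proteins, Parp9 works in a pair with the ubiquitin ligase Dtx3l, and these genes are known as interferon-inducible. In macrophages and microglia, LPS acts through Toll-like receptor 4 and sets off NF-kB and, through secreted type I interferon, STAT-driven transcription.

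The 9 genes lie on 7 mouse chromosomes (mm10, coordinates as in GENCODE M21). Parp14 (ENSMUSG00000034422, chr16:35832874-35871544, minus strand), Dtx3l (ENSMUSG00000049502, chr16:35926511-35939151, minus) and Parp9 (ENSMUSG00000022906, chr16:35938470-35972605, plus) are neighbours. Dtx3l and Parp9 run in opposite directions and overlap at their starts: 9.4% of the exonic bases of Parp9 lie on Dtx3l, so without a known strand setting a small share of the reads of this pair cannot be assigned to one gene. Cd38 (ENSMUSG00000029084) lies at chr5:43868553-43912375 on the plus strand and Nampt (ENSMUSG00000020572) at chr12:32819545-32853349 on the plus strand. Nmnat1 (ENSMUSG00000028992, chr4:149467572-149485202, minus) and Nadk (ENSMUSG00000029063, chr4:155562378-155591001, plus) share a chromosome. Parp1 (ENSMUSG00000026496) is at chr1:180568924-180601254 on the plus strand, Parp12 (ENSMUSG00000038507) at chr6:39086410-39118349 on the minus strand, and Parp10 (ENSMUSG00000063268) at chr15:76231174-76243441 on the minus strand, where 4.8% of its exonic bases also belong to Plec. Sequence shared with other genes at 98% identity over at least 75 bases covered 10.3% of the longest transcript of Parp9 (its overlap with Dtx3l), 7.26% of Nmnat1, 1.5% of Parp14 and none of the other 6.

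Promoter windows of 300 bases, from 250 before to 50 after the annotated start, were available from RefSeq (GRCm38.p6) for Cd38, Nampt, Nmnat1, Nadk, Parp1, Parp12 and Dtx3l. 4 of them are printed because the results turn on these genes: Parp12 and Dtx3l rose with LPS and fell with fructose, Cd38 rose with LPS and fell with fructose and, less stably, with glucose, and Parp1 fell with LPS. Each reads 5′ to 3′ on the gene's own strand, and capitals mark a match to an NF-kB motif.
Parp12, chr6:39118300-39118599, minus strand: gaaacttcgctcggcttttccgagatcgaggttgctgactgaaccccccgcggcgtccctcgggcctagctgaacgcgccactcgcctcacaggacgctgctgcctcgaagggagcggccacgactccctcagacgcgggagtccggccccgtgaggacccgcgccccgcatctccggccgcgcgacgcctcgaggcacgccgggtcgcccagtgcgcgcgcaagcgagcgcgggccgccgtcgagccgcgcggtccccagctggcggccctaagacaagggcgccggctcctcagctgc
Dtx3l, chr16:35938978-35939277, minus strand: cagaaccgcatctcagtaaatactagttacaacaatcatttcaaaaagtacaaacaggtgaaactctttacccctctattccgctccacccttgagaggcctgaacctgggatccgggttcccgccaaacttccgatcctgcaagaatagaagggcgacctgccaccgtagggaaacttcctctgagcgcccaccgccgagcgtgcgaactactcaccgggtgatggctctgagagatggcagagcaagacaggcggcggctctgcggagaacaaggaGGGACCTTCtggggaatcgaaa
Cd38, chr5:43868559-43868858, plus strand: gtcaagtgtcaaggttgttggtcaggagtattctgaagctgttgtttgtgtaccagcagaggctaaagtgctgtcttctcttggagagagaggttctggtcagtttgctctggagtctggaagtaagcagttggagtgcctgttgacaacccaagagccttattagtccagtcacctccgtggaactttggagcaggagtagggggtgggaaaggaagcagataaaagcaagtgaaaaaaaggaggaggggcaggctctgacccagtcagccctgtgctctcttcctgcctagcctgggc
Parp1, chr1:180568641-180568940, plus strand: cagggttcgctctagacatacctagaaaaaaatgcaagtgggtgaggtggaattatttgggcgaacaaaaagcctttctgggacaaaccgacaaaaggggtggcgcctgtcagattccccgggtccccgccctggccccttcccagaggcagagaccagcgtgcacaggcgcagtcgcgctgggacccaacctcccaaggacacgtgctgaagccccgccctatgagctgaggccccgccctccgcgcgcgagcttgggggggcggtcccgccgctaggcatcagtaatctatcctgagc
These windows differ in base composition, with a G and C content of 73.7% in Parp12, 54.3% in Dtx3l, 51.7% in Cd38 and 62.0% in Parp1. Motifs were searched on both strands as the core of the interferon-stimulated response element (GAAANNGAA, or TTCNNTTTC on the other strand), the gamma-activated site (TTCNNNGAA) and NF-kB (GGGANNTTC, or GAANNTCCC). The first of these is held by 8.55%, the second by 8.29% and the last by 3.94% of 32817 mouse promoter windows of the same length. The Dtx3l window held 1 match, the NF-kB match GGGACCTTC, which begins 28 bases after the start. No match to any of these motifs was found in the windows of Cd38, Nampt, Nmnat1, Nadk, Parp1 and Parp12.

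Total counts were 15453776 to 17956772 per library. Libraries of the same group always differed by more than counting error (chi-square per degree of freedom of 3.57 or more). Of 12 microglial markers, 8 were tested, led by Cd68 at a mean of 643 CPM (counts per 1000000 scaled reads) and Csf1r at 423 CPM. Sums over these markers therefore weigh mostly on Cd68 and Csf1r. Cx3cr1 was tested at a mean of only 2.31 CPM. The untested markers were P2ry12 with 1 to 6 counts in a library, Aif1 with 2 to 9, Fcrls with 0 to 12 and Sall1 with at most 1. High fructose library 2 stood apart on the third principal component (32.2, against 9.58 and 6.2 for the other high fructose libraries), and high glucose library 1 on the second (11.92, against -15.79 and -18.55). Summed lymphocyte markers reached at most 0.263 CPM, neuronal markers 2.39 CPM and endothelial markers 1.98 CPM in any library. The 3 fibroblast markers summed to 0.395 to 14.1 CPM in high fructose, 0.43 to 5.35 CPM in high glucose, 0.239 to 5.03 CPM in control medium with LPS and 0.279 to 7.91 CPM without LPS, so these ranges overlapped. Separate cultures are not mentioned in the labels, and the p-values therefore speak of the spread among these libraries, which may be technical. Fewer expressing cells and less RNA per cell cannot be told apart in such bulk samples.

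Compared per gene length, the NAD kinase Nadk, the salvage enzyme Nampt and Parp1 were the most abundant of the 9 in every group. Nmnat1 had the lowest mean in the 3 groups with LPS, but in high fructose its range overlapped that of Cd38. In control medium with LPS the order of mean FPKM (count over gene length and library total) was Nadk at 96.2 ± 0.603, Nampt at 71.9 ± 1.07, Parp1 at 65.0 ± 0.999 and Parp12 at 42.4 ± 1.88 (SD, n = 3). Parp9 at 32.2 ± 1.11 FPKM and Parp14 at 31.8 ± 2.75 FPKM overlapped, and Parp10 at 24.4 ± 1.23 FPKM, Cd38 at 10.9 ± 0.391 FPKM and Nmnat1 at 7.23 ± 0.633 FPKM followed without overlap. Without LPS the order was different. Parp1 led at 74.2 ± 1.29 FPKM, ahead of Nadk at 56.5 ± 2.20, Nampt at 42.2 ± 0.958 and Parp12 at 13.1 ± 0.492 FPKM. Cd38 at 7.53 ± 0.607 FPKM overlapped Nmnat1 at 6.78 ± 0.608, which overlapped Parp9 at 6.73 ± 0.347 FPKM. Parp10 followed without overlap at 5.94 ± 0.333, and Parp14 was last at 1.95 ± 0.161 FPKM. In high fructose with LPS, Parp12 averaged 27.0 ± 2.11 FPKM. Parp9 at 19.4 ± 1.42 FPKM overlapped Parp14 at 17.4 ± 2.12, which overlapped Parp10 at 15.6 ± 1.39 FPKM. In high glucose with LPS these 4 averaged 38.7 ± 0.860, 28.7 ± 1.48, 27.2 ± 2.47 and 21.96 ± 0.659 FPKM in the same sequence, and Parp9 and Parp14 overlapped. Nampt and Parp1 overlapped in both raised-sugar groups, at 60.6 ± 2.45 and 63.9 ± 2.13 FPKM in high fructose and at 67.9 ± 2.40 and 66.6 ± 0.593 FPKM in high glucose.

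**Figure D1:**
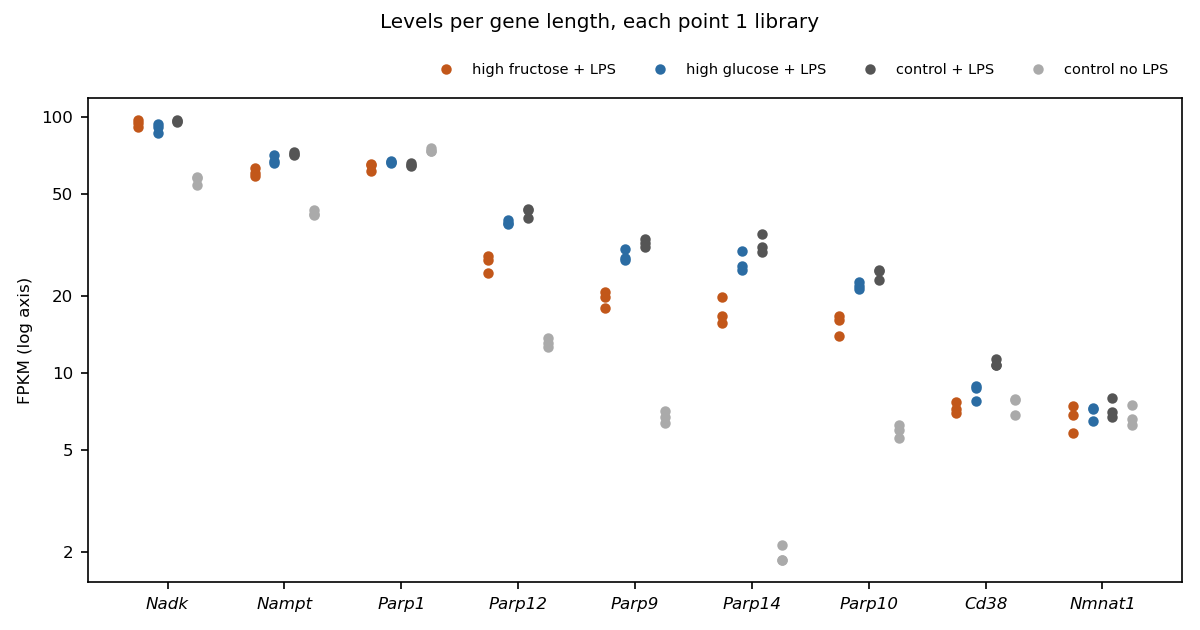
FPKM of each of the 9 genes (log axis) in each of the 12 libraries, 1 point per library, coloured by group. Nadk, Nampt and Parp1 sit at the top in every group, and Parp14 has the widest gap between its 3 libraries without LPS, around 1.95 FPKM, and its 9 libraries with LPS.

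LPS in control medium raised 7 of the 9 genes and lowered 1, Parp1, while Nmnat1 did not pass the test. The 4 interferon-inducible PARPs rose most, with Parp14 at 16.3-fold, Parp9 at 4.77-fold, Parp10 at 4.09-fold and Parp12 at 3.22-fold. Nampt and Nadk rose about equally, at 1.70-fold each, and Cd38 rose 1.45-fold. LPS moved many genes: 15.2% of all tested genes were called higher and 13.6% lower, against 7 and 1 of the 9. A gene was called at a Benjamini-Hochberg adjusted p below 0.05 in edgeR's quasi-likelihood test over all 12766 genes. Whether the libraries of compared groups overlap is given below as a description only. The share of all tested genes whose groups separate was not counted, so no weight is put on separation in any comparison.

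Parp14, a large PARP with macrodomains that bind ADP-ribose, had 276, 326 and 291 CPM in the 3 control-medium libraries with LPS, against 17.4, 19.95 and 17.3 CPM in the 3 without. Every library with LPS was far above every library without it. Its log2 fold change was 4.03 ± 0.10 (SE; adjusted p = 1.92e-15 in edgeR's quasi-likelihood test). Parp9 had 158, 162 and 152 CPM with LPS, against 31.3, 34.7 and 32.9 CPM without. The groups were again well apart, with a log2 fold change of 2.25 ± 0.07 (SE; edgeR adjusted p = 1.15e-14). Parp10, a cytoplasmic mono-ADP-ribosyltransferase, had 98.5, 108 and 107 CPM with LPS, against 24.0, 26.8 and 25.8 CPM without. Parp12, which carries zinc fingers of the kind that bind RNA, had 175, 173 and 162 CPM with LPS, against 54.8, 52.6 and 50.9 CPM without. Neither gene overlapped between groups, and their log2 fold changes were 2.03 ± 0.07 (SE; edgeR adjusted p = 1.47e-13) for Parp10 and 1.69 ± 0.06 (SE; edgeR adjusted p = 2.01e-13) for Parp12.

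Among the enzymes that make and convert NAD, Nampt had 371, 364 and 360 CPM with LPS, against 213, 220 and 211 CPM without, and Nadk had 361, 360 and 365 CPM with LPS, against 219, 203 and 217 CPM without. In both genes the groups did not overlap. Their log2 fold changes were 0.77 ± 0.05 (SE; edgeR adjusted p = 2.82e-10) for Nampt and 0.77 ± 0.05 (SE; edgeR adjusted p = 4.05e-10) for Nadk. Nmnat1, the step between them, had 21.4, 24.2 and 20.6 CPM with LPS and 22.8, 19.1 and 20.3 CPM without. These values overlapped, and the 95% interval of its log2 fold change ran from -0.13 to 0.31 (edgeR adjusted p = 0.572). Of the enzymes that spend NAD, Cd38 had 41.8, 41.7 and 44.5 CPM with LPS, against 26.7, 30.7 and 30.9 CPM without, a log2 fold change of 0.54 ± 0.08 (SE; edgeR adjusted p = 3.81e-05). Parp1 went the other way, with 351, 343 and 342 CPM with LPS, against 389, 402 and 393 CPM without. Its groups did not overlap either, but the change was small, a log2 fold change of -0.19 ± 0.04 (SE; edgeR adjusted p = 0.00156). The 8 calls held in every alternative run. Scaling by upper quartile or by library totals moved the split over all genes to 1622 higher and 2292 lower, or to 1412 and 2951, against 1941 higher and 1736 lower.

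**Figure D2:**
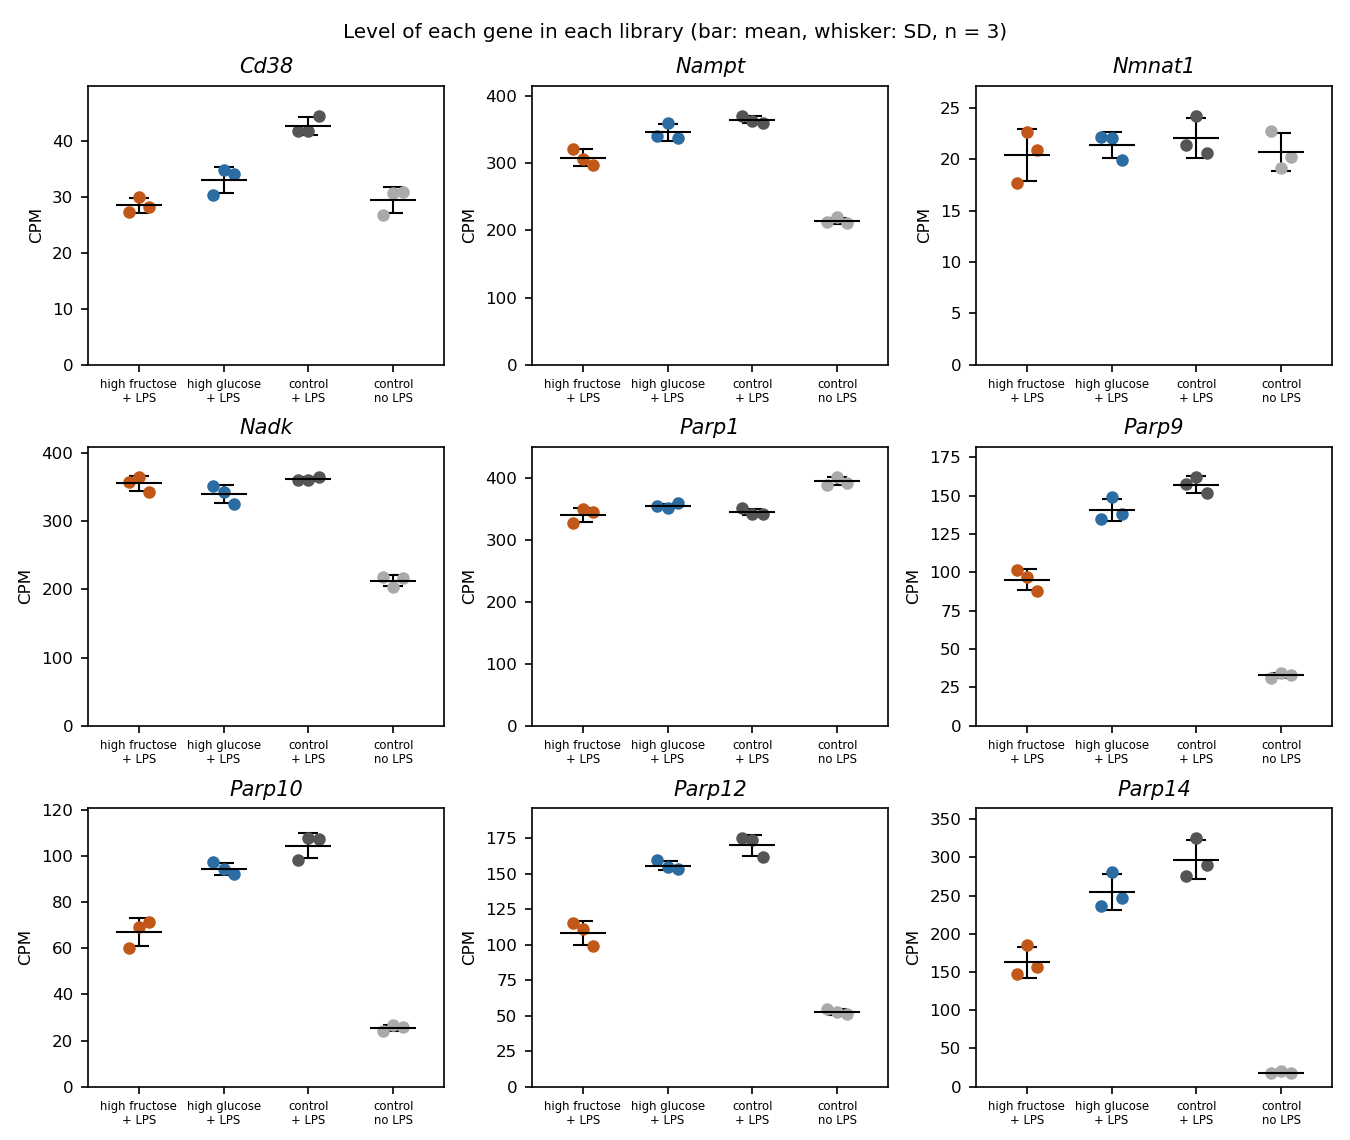
CPM of each gene in each library (points), with the mean (bar) and SD (whisker) of the 3 libraries of a group, each panel on its own scale from 0. Parp9, Parp10, Parp12 and Parp14 are lowest in control medium without LPS and lie lower in high fructose than in the other 2 groups with LPS, while Nmnat1 overlaps across all 4 groups.

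Summed astrocyte-list markers were 21.1 to 24.7 CPM in control medium with LPS and 27.6 to 29.5 CPM without, over 4 genes of which Aqp4 had at most 3 counts. Summed oligodendrocyte-list markers were 27.7 to 28.9 CPM with LPS and 33.1 to 39.3 CPM without, over 4 genes of which Mog had at most 3 counts. Only 2 of the 4 astrocyte-list genes and 1 of the 4 oligodendrocyte-list genes had enough counts to be tested. Their part in the LPS results was not tested.

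High fructose under LPS lowered 6 of the 9 genes relative to control medium with LPS and raised none, by edgeR and by DESeq2. Parp14, Parp9, Parp12 and Parp10 fell to between 54.8% and 64.0% of the control-medium level, Cd38 to 66.8% and Nampt to 84.5%. Nadk, Parp1 and Nmnat1 did not pass the test. Over all tested genes 2.55% were called lower and 2.37% higher in this comparison, against 6 and 0 of the 9. At an unadjusted p below 0.05 the 9 also gave 6 and 0, and 1984 of all 12766 genes passed in either direction. The median log2 fold change was -0.58 over the 9 and -0.0013 over all genes.

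Parp14 had 147, 185 and 156 CPM in the high fructose libraries, against 276, 326 and 291 CPM in control medium with LPS. The highest high fructose library stayed below the lowest control-medium library, and the log2 fold change was -0.87 ± 0.09 (SE; 95% interval -1.05 to -0.69; edgeR adjusted p = 3.35e-06). Parp9 had 101, 96.8 and 87.7 CPM in high fructose, against 158, 162 and 152 CPM in control medium, a log2 fold change of -0.72 ± 0.06 (SE; edgeR adjusted p = 6.52e-07). Parp12 had 115, 111 and 99.0 CPM in high fructose, against 175, 173 and 162 CPM in control medium, and changed by -0.65 ± 0.06 on the log2 scale (SE; edgeR adjusted p = 1.37e-06). Parp9 and Parp12 likewise showed no overlap, and their 3 high fructose libraries lay close together. Parp10 had 60.1, 69.3 and 71.4 CPM in high fructose, against 98.5, 108 and 107 CPM in control medium, and changed by -0.64 ± 0.07 on the log2 scale (SE; edgeR adjusted p = 5.46e-06). The high fructose changes of these 4 genes ran from -0.64 (Parp10) to -0.87 (Parp14) on the log2 scale. Their LPS changes in control medium ran from 1.69 (Parp12) to 4.03 (Parp14), so Parp14 had the largest change in both.

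Cd38, which cleaves NAD to nicotinamide and ADP-ribose, had 27.3, 30.02 and 28.2 CPM in high fructose, against 41.8, 41.7 and 44.5 CPM in control medium with LPS, a log2 fold change of -0.58 ± 0.08 (SE; edgeR adjusted p = 0.000148). The high fructose values lay in the range of the unstimulated control libraries, which had 26.7, 30.7 and 30.9 CPM. Nampt had 322, 306 and 298 CPM in high fructose, against 371, 364 and 360 CPM in control medium with LPS, and changed by -0.24 ± 0.05 on the log2 scale (SE; edgeR adjusted p = 0.0026). The fall of Nampt was the smallest of the 6, and all its high fructose libraries stayed above the unstimulated range of 211 to 220 CPM. Set against the unstimulated mean, Parp9, Parp10, Parp12 and Parp14 kept 50.1%, 52.3%, 47.5% and 51.8% of the difference between control medium with and without LPS. Nampt kept 62.5% and Cd38 none (-7.0%). These shares use the same control libraries as the fold changes and describe the means only. No high fructose group without LPS was measured, so the shares do not give the LPS rise within high fructose medium.

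Nadk, the supplier of NADP, had 358, 365 and 344 CPM in high fructose and 361, 360 and 365 CPM in control medium with LPS, and the 95% interval of its log2 fold change was -0.12 to 0.07 (edgeR adjusted p = 0.861). Parp1 had 327, 349 and 345 CPM in high fructose and 351, 343 and 342 CPM in control medium, an interval of -0.11 to 0.07 (edgeR adjusted p = 0.876). Both intervals leave out falls of the size seen in the 4 interferon-inducible PARPs. Nmnat1 had 17.7, 22.7 and 20.9 CPM in high fructose and 21.4, 24.2 and 20.6 CPM in control medium, with a wider interval of -0.33 to 0.11 (edgeR adjusted p = 0.703). Without high fructose library 2, all 6 calls held, with log2 fold changes of -0.97 for Parp14, -0.74 for Parp9, -0.67 for Parp10, -0.67 for Parp12, -0.62 for Cd38 and -0.24 for Nampt. Ribosomal RNA genes took 0.423%, 0.313% and 0.365% of counts in high fructose, against 0.585%, 0.535% and 0.457% in control medium with LPS, and oligodendrocyte-list markers summed to 32.6 to 37.5 CPM, against 27.7 to 28.9 CPM. Microglial markers summed to 1500 to 1600 CPM, against 1600 to 1650 CPM. The part of these in the high fructose results was not tested.

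High glucose under LPS lowered 1 of the 9 genes, Cd38, and no other change passed the test, although 5 genes were lower and 0 higher at an unadjusted p below 0.05. Over all tested genes 0.971% were called lower and 0.587% higher, and 1780 of the 12766 had an unadjusted p below 0.05 in either direction. The interferon-inducible PARPs stayed at 85.6% (Parp14) to 91.6% (Parp12) of their control-medium means, and Cd38 fell to 77.5%.

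Cd38 had 30.4, 34.7 and 34.1 CPM in high glucose, against 41.8, 41.7 and 44.5 CPM in control medium with LPS. The groups did not overlap, and the log2 fold change was -0.37 ± 0.08 (SE; edgeR adjusted p = 0.0237). The call was lost when any of the control-medium LPS libraries 1, 2 or 3 was left out (edgeR adjusted p = 0.0741, 0.0732 and 0.116) or high glucose library 1 or 3 (edgeR adjusted p = 0.0930 and 0.0700), with log2 fold changes of -0.31 to -0.39 over these 5. Parp14 had 237, 281 and 247 CPM in high glucose and 276, 326 and 291 CPM in control medium with LPS. These overlapped, the 95% interval of the log2 fold change was -0.40 to -0.05, and the edgeR adjusted p was 0.227. Alternatives that called Parp14 included the fit with no filter on low counts (edgeR adjusted p = 0.00738). Parp9 had 135, 149 and 138 CPM in high glucose and 158, 162 and 152 CPM in control medium, with an interval of -0.28 to -0.04 (edgeR adjusted p = 0.216). Parp10, at 97.3, 94.3 and 92.1 CPM in high glucose, had an interval of -0.28 to -0.01 (edgeR adjusted p = 0.316), and Parp12, at 159, 154 and 153 CPM in high glucose, one of -0.25 to -0.01 (edgeR adjusted p = 0.323). For these 3 genes the groups did not overlap, but by narrow margins. The highest high glucose library had 149, 97.3 and 159 CPM, against 152, 98.5 and 162 CPM in the lowest control-medium library. The share of all genes that separate this way was not counted, so no weight is put on it. None of the 3 differences passed the adjustment over all genes, and the intervals leave out falls of the size seen in high fructose. Nampt had 340, 360 and 338 CPM in high glucose, with an interval of -0.17 to 0.02 (edgeR adjusted p = 0.474). Nadk had 352, 344 and 326 CPM and an interval of -0.18 to 0.01 (edgeR adjusted p = 0.412), and Parp1 had 355, 352 and 359 CPM and an interval of -0.05 to 0.13 (edgeR adjusted p = 0.743). Nmnat1, at 22.2, 22.03 and 19.95 CPM, had an interval of -0.26 to 0.18 (edgeR adjusted p = 0.910). The 8 tested and 4 untested microglial markers summed to 1440 to 1500 CPM in high glucose, against 1600 to 1650 CPM in control medium with LPS, and the astrocyte list to 18.8 to 20.5 CPM, against 21.1 to 24.7 CPM. Their part in the high glucose results was not tested.

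The direct comparison of the raised sugars showed lower levels in high fructose than in high glucose for 4 of the 9 genes, Parp9, Parp10, Parp12 and Parp14. They lay at 0.64-fold to 0.71-fold of the high glucose mean. None was higher in edgeR, in DESeq2 (5 lower, with Nampt added) or at an unadjusted p below 0.05 (6 lower). Over all tested genes 1.88% were called lower and 1.84% higher in high fructose, and 1995 of the 12766 had an unadjusted p below 0.05 in either direction.

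Parp14 had 147, 185 and 156 CPM in high fructose, against 237, 281 and 247 CPM in high glucose, a log2 fold change of -0.64 ± 0.09 (SE; edgeR adjusted p = 0.000162). Parp9 had 101, 96.8 and 87.7 CPM in high fructose, against 135, 149 and 138 CPM in high glucose, a log2 fold change of -0.56 ± 0.06 (SE; edgeR adjusted p = 2.29e-05). In both genes every high fructose library was below every high glucose library. Parp12 had 115, 111 and 99.0 CPM in high fructose, against 159, 154 and 153 CPM in high glucose, and changed by -0.52 ± 0.06 on the log2 scale (SE; edgeR adjusted p = 3.04e-05). Parp10 had 60.1, 69.3 and 71.4 CPM in high fructose, against 97.3, 94.3 and 92.1 CPM in high glucose, and changed by -0.50 ± 0.07 on the log2 scale (SE; edgeR adjusted p = 0.000162). These groups did not overlap either, and without high fructose library 2 the 4 log2 fold changes were -0.52 to -0.75, all still called. Cd38, called lower in either sugar than in control medium, though less stably in high glucose, had 27.3, 30.02 and 28.2 CPM in high fructose and 30.4, 34.7 and 34.1 CPM in high glucose. Its log2 fold change of -0.21 ± 0.08 (SE; 95% interval -0.38 to -0.04) missed the threshold (edgeR adjusted p = 0.183), so a difference between the sugars was not shown for Cd38. Nampt had 322, 306 and 298 CPM in high fructose and 340, 360 and 338 CPM in high glucose, a log2 fold change of -0.17 ± 0.05 (SE) at the edge of the threshold (edgeR adjusted p = 0.0502). Alternatives that called it included upper-quartile factors (0.0450), library totals (0.0452), DESeq2 (0.0127) and the fit without high fructose library 1 (0.0377), and the adjusted p over all its alternatives ran from 0.0127 to 0.179. Nadk, Parp1 and Nmnat1 did not pass the test, with 95% intervals of -0.03 to 0.16, -0.15 to 0.03 and -0.29 to 0.16 on the log2 scale (edgeR adjusted p = 0.571, 0.524 and 0.822). Astrocyte-list markers summed to 21.4 to 24.8 CPM in high fructose, against 18.8 to 20.5 CPM in high glucose, and oligodendrocyte-list markers to 32.6 to 37.5 CPM, against 29.0 to 31.8 CPM, and their part was not tested here either.

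**Figure D3:**
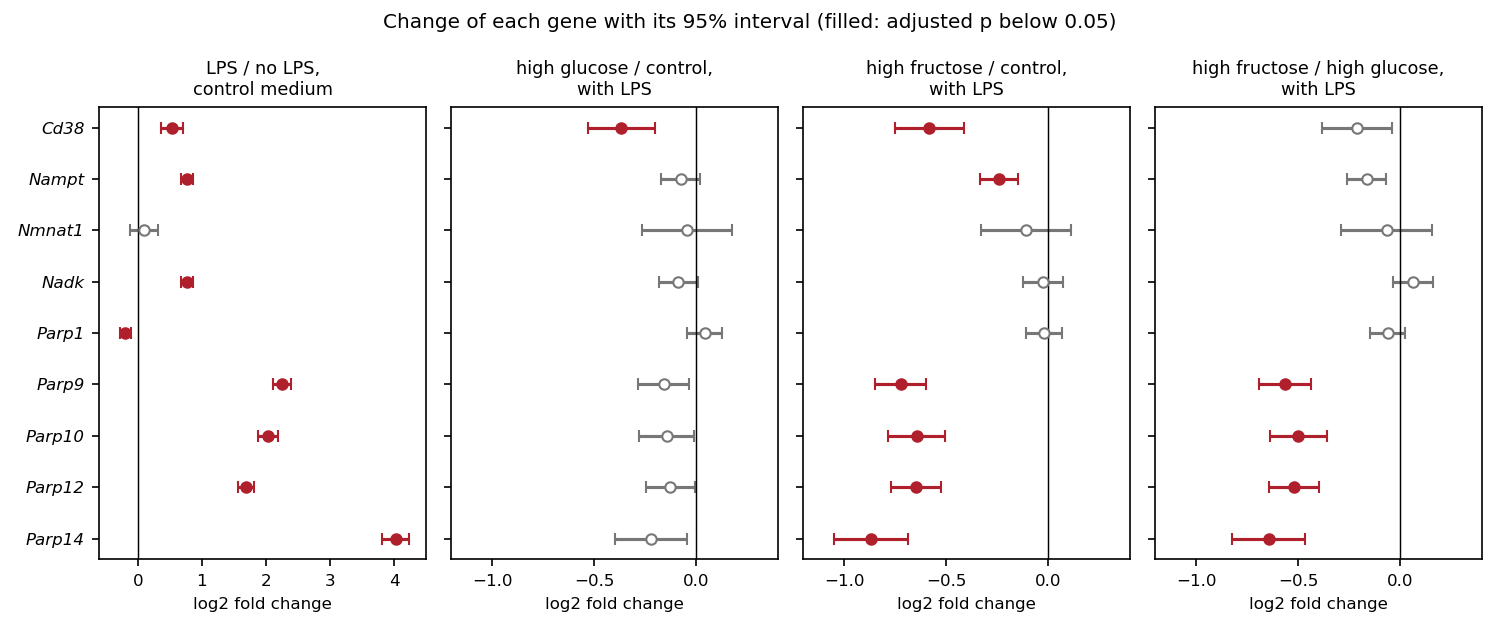
Log2 fold change of each gene with its 95% interval in the 4 comparisons, filled red where the adjusted p was below 0.05; the LPS panel has a wider axis than the other 3. Parp9, Parp10, Parp12 and Parp14 have the largest rises with LPS (1.69 to 4.03) and are filled in both comparisons of high fructose, while Cd38 is filled for high fructose and for high glucose against control medium.

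Of the other 11 PARP family genes tested, LPS raised 6 and lowered 1 (median log2 fold change 0.44, against -0.004 over all genes), where 15.2% of all genes were called higher and 13.6% lower. High fructose lowered 1 of the 11, where 2.55% of all genes were called lower. The largest rise was in Parp11, a mono-ADP-ribosyltransferase, which had 20.9, 21.1 and 17.2 CPM with LPS, against 9.92, 10.9 and 10.5 CPM without. Its log2 fold change was 0.92 ± 0.12 (SE; edgeR adjusted p = 1.47e-05), and the groups were well apart. Parp8 rose by 0.87 ± 0.19 (edgeR adjusted p = 0.00205), Zc3hav1, a catalytically inactive member that binds viral RNA, by 0.78 ± 0.06 (edgeR adjusted p = 2.79e-08) and Parp3, which acts at DNA breaks, by 0.76 ± 0.09 (edgeR adjusted p = 1.88e-06) on the log2 scale. The remaining calls, named after their values were seen, were Tiparp (0.71) and Parp4 (0.43, both higher) and Parp2 (-0.30), like Parp1 a DNA break sensor and like Parp1 lower. In high fructose, Parp11 had 9.93, 13.1 and 13.1 CPM, against 20.9, 21.1 and 17.2 CPM in control medium with LPS. The groups did not overlap, and Parp11 fell by 0.71 ± 0.12 on the log2 scale (SE; edgeR adjusted p = 0.00147). It was also lower in high fructose than in high glucose, which had 20.2, 17.3 and 16.4 CPM (log2 fold change -0.58 ± 0.13; edgeR adjusted p = 0.0124). Zc3hav1, in contrast, had 276, 326 and 284 CPM in high fructose and 283, 304 and 297 CPM in control medium with LPS, and these values overlapped.

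Dtx3l, the ubiquitin ligase partner of Parp9, followed the same order of groups as Parp9. It had 57.5, 74.7 and 56.3 CPM in high fructose, 90.1, 100 and 85.2 CPM in high glucose, 91.3, 105 and 93.8 CPM in control medium with LPS and 20.9, 23.4 and 23.2 CPM without LPS. Its log2 fold change was 2.10 ± 0.10 for LPS (SE; edgeR adjusted p = 1.73e-11), -0.62 ± 0.09 for high fructose (SE; edgeR adjusted p = 0.00038) and -0.55 ± 0.09 for high fructose against high glucose (SE; edgeR adjusted p = 0.00224). The 3 high fructose libraries lay below all other libraries with LPS, and the exonic overlap with Parp9 covers 8.0% of the exonic bases of Dtx3l. Of 8 partners and erasers of ADP-ribose tested, LPS called 2 higher and 1 lower, which is near the 15.2% and 13.6% of all genes. High fructose called Dtx3l alone, where 2.55% of all genes were called lower and 2.37% higher. Oard1, which removes ADP-ribose from proteins, had 10.2, 9.37 and 9.50 CPM with LPS, against 15.9, 11.8 and 14.7 CPM without (log2 fold change -0.54 ± 0.13; edgeR adjusted p = 0.00338). Hpf1, the factor that directs Parp1 to serine residues, rose by 0.17 ± 0.06 on the log2 scale (edgeR adjusted p = 0.0312).

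**Figure D4:**
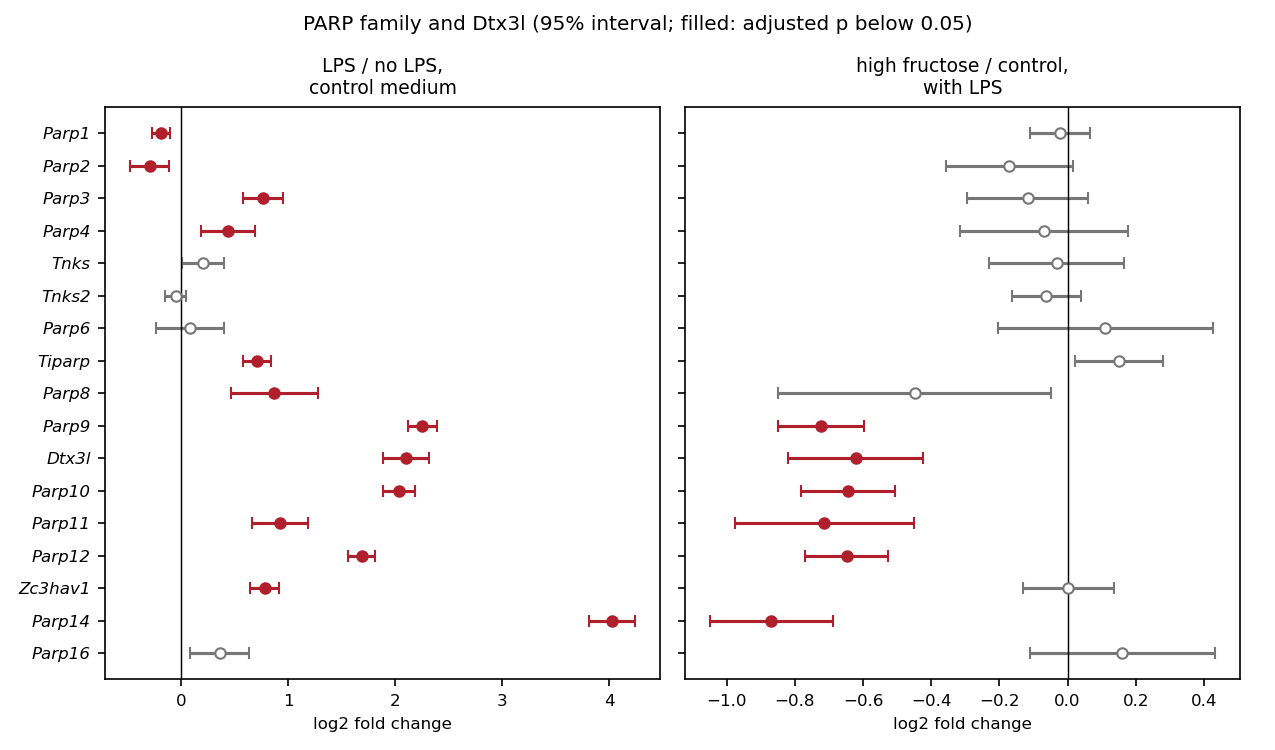
Log2 fold change with 95% interval of 16 tested PARP family genes and Dtx3l for LPS in control medium (left) and high fructose under LPS (right), filled red where the adjusted p was below 0.05. High fructose calls are Parp9, Dtx3l, Parp10, Parp11, Parp12 and Parp14, while Zc3hav1, Tiparp and Parp3 are filled on the left and open on the right.

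Among 8 further NAD synthesis and salvage genes tested, LPS raised Pnp and lowered Nadk2, which is near the shares of all genes called (15.2% higher and 13.6% lower). Pnp, a purine nucleoside phosphorylase that also accepts nicotinamide riboside, had 64.8, 63.7 and 62.4 CPM with LPS, against 32.4, 29.4 and 29.8 CPM without, a log2 fold change of 1.06 ± 0.07 (SE; edgeR adjusted p = 1.88e-09). Its high fructose values were 52.9, 46.3 and 47.0 CPM, below all libraries of control medium with LPS (log2 fold change -0.39 ± 0.07; edgeR adjusted p = 0.00211). Pnp is uncertain, since 29.7% of its longest transcript matches other genes, Pnp2 among them. Nadk2, the mitochondrial NAD kinase, had 12.4, 12.8 and 16.4 CPM with LPS, against 21.3, 19.9 and 19.5 CPM without, and fell by 0.54 ± 0.13 on the log2 scale (SE; edgeR adjusted p = 0.00394), whereas the cytosolic Nadk rose. Of 11 further consumers and nicotinamide-handling genes tested, sirtuins included, LPS lowered 1 in edgeR, against 13.6% of all genes. At an unadjusted p below 0.05, 3 of the 11 were lower and 0 higher, where 4836 of the 12766 tested genes passed in either direction. The called gene was Nt5e, which encodes the cell-surface nucleotidase CD73. Nt5e had 12.1, 9.55 and 11.5 CPM with LPS, against 20.3, 20.1 and 22.5 CPM without, and fell by 0.93 ± 0.10 on the log2 scale (SE; edgeR adjusted p = 1.59e-06). High glucose called 0 of the 38 related genes tested in edgeR and in DESeq2 (1 higher and 2 lower at an unadjusted p below 0.05). High fructose called Parp11, Dtx3l and Pnp lower and none higher (2 higher and 7 lower at an unadjusted p below 0.05), against 0.971% and 2.55% of all genes called lower. At the unadjusted threshold 1780 of the 12766 tested genes passed for high glucose and 1984 for high fructose, in either direction.

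Likeness of pattern was measured as the Pearson correlation of log2 CPM over the 12 libraries, which share 4 groups, so it mainly reads the group means. Genes whose symbol is only a clone name, model name or accession were left out of the ranking. The genes most like Parp9 were Ifit2 (r = 0.998) and Nampt (0.997), those most like Parp10 were Znfx1 (0.996) and Igtp (0.995), and those most like Parp12 were Trafd1 (0.996) and Parp9 (0.994). Slfn5 and Ddx58 (0.998 each) were most like Parp14. Nampt was most like Parp9 (0.997) and Stat2 (0.995) although its changes were smaller: the log2 fold change for LPS was 0.77 in Nampt, 2.25 in Parp9 and 2.24 in Stat2. Nadk was most like Tlr2 and Acod1 (0.992 each), which like Nadk were high in all 3 groups with LPS. The log2 fold change for high fructose was -0.03 in Nadk, -0.03 in Tlr2 and -0.19 in Acod1. By this measure Nadk was also close to Nampt (0.941) and to the 4 interferon-inducible PARPs, from 0.918 for Parp12 to 0.965 for Parp14. Cd38 was most like Mpeg1 (0.939) and Antxr1 (0.928), which had log2 fold changes of -0.33 and -0.29 for high glucose and of -0.47 and -0.35 for high fructose. Parp1 was most like Tmem64 (0.985) and Aldh18a1 (0.98), while the closest values for Nmnat1, H60b (0.823) and Zfp39 (0.82), were lower than for the other 8 genes.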

How the data were processed

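RNA was sequenced from 12 libraries of N9 cells. Per the submitters' processing notes, featureCounts 1.5.0-p3 and mm10 were used; the authors deposited whole-number counts for each Ensembl gene and an FPKM table. FPKM as deposited by the authors equalled the count over gene length and 1 constant per library (largest deviation 1.18e-07% among genes with at least 200 counts), and it was used only to compare levels between genes. The aligner, annotation release and strand setting were not given in the sources used here. Reads of overlapping genes on opposite strands may therefore be mixed.

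Counts were tested in R 4.3.3 with edgeR 4.0.16: filterByExpr at its defaults, TMM (trimmed mean of M-values) scaling, and 1 quasi-likelihood fit of all 12 libraries with 1 coefficient per group (8 residual degrees of freedom). P-values were adjusted by Benjamini-Hochberg over the 12766 tested genes of each comparison, and a gene was called below 0.05. CPM are counts per 1000000 TMM-scaled reads. Standard errors came from the F statistic, and 95% intervals from the t distribution. The steps were tested on simulated counts with the same relative spread for every gene, so false calls at the real spread were not checked. Shared sequence was searched with BLAST 2.17.0+. Alternatives were other scalings, no filter, DESeq2 1.42.0, a replicate term and leaving out each library. Total counts of 15453776 to 17956772 limit the precision of low genes such as Nmnat1.

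The genes, the related lists and the tests were chosen with earlier results of these data known. All 9 genes are described whatever their result. Of each related list, up to 4 called genes per comparison with the largest change are named where either group averaged 50 counts or more. For likeness, the 2 genes with the highest correlation are named, among tested genes whose symbol is not a clone name, model name or accession.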

Additional observations from a re-analysis of the deposited data

How the results depend on the processing

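Over the 9 genes and 4 comparisons, 632 of 648 alternative values kept their direction and their side of the threshold, 5 lost a call, 7 gained one and 4 changed sign. The 648 include fits that left out a library outside the compared groups, which could hardly move the fold change, so the 632 are not all separate checks. All 5 lost calls were Cd38 in high glucose, when a library of the compared groups was left out. The sign changes were in genes that were not called, when 1 library was left out: Nmnat1 in high glucose ranged from -0.0924 to 0.0283, Nmnat1 in high fructose against high glucose from -0.1497 to 0.0241, and Parp1 in high fructose from -0.041 to 0.002 (log2). The high glucose count was least stable. Of the 9 genes, 2 were called there with no filter and 2 with the replicate block, and 0 to 1 when a library was left out, against 1. Of the 38 related genes, 0 to 1 were called when a library was left out, against 0. Of all genes, 199 were called for high glucose, against 427 with no filter, 329 with DESeq2, 391 with the replicate block and 67 to 234 with a library left out. The replicate block gave 735 calls for high fructose against high glucose, against 475. The block also called Parp14 in high glucose (adjusted p = 0.00338) and Nampt in high fructose against high glucose (0.0164). Same-numbered libraries deviated together little (r = -0.194 to 0.119), so the numbers were not taken as pairs. The cause of these shifts was not tested. The 11 related genes that were not tested had at most 18 counts in any library.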

Other observations

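Several genes of the routes to NAD from tryptophan and nicotinic acid had too few counts to be tested, among them Kmo, Ido1, Ido2, Kynu, Tdo2 and Qprt of the tryptophan route. Afmid and Haao, of the same route, were tested with 2 to 27 and 2 to 21 counts per library, and Nmrk1, which starts the route from nicotinamide riboside, with 94 to 160. Kmo had 9, 3, 11 and 9 counts in all in the 3 libraries of high fructose, high glucose, control medium with LPS and control medium without LPS, and Tdo2 had 18, 6, 9 and 13. Ido1 had 1, 1, 0 and 4 counts in the same groups, and Kynu 0, 1, 0 and 0. Naprt, which starts the route from nicotinic acid, had 15, 27, 4 and 10 counts. Nnmt, which methylates nicotinamide and so draws it away from salvage, had 1, 2, 0 and 3 counts. At this depth no difference between groups could be shown for the untested genes.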
